A study of Mus musculus with 9 samples.

Results

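The genes of MHC class I antigen presentation described here are *H2-D1*, *H2-K1*, *B2m*, *Tap1*, *Tap2*, *Tapbp*, *Psmb8*, *Psmb9*, *Psmb10* and *Nlrc5*, 10 of the 54232 gene IDs in the deposited count table. They were taken by gene symbol, and the symbols were chosen from results of these same libraries over all 9 columns, so their levels and fold changes are given as a description, and nothing is read from the counts of them that pass a threshold. RNA-seq was made of the C57 x CBA embryonic stem cell line named OG2, which carries GFP under the distal *Oct4* promoter, in the naïve state in serum/LIF medium (naïve mESCs) and after conversion to the primed state in medium with bFGF and Activin A (primed mEpiSCs). Both states were grown on feeder cells, which were mouse embryonic fibroblasts inactivated with mitomycin C, and each state was sequenced at passage 5 (P5) and passage 15 (P15) with 2 libraries. A further library came from mouse embryonic fibroblasts of the C57 x CBA strain (MEF). All naïve and primed libraries thus come from 1 line, and nothing states that the 2 libraries of a group came from separate cultures, so that spreads and p-values measure the difference between these libraries, which may be technical.

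MHC class I molecules show peptides from inside the cell to cytotoxic T cells and are also read by natural killer cells. The proteasome cuts proteins into peptides, the TAP transporter carries them into the endoplasmic reticulum, tapasin helps to load them, and the loaded heavy chain leaves for the cell surface together with β2-microglobulin. Interferons raise the genes of this pathway, and pluripotent cells are known for low class I expression.

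Of the 10 genes, 7 lie on chromosome 17 (*H2-D1*, *H2-K1*, *Tap1*, *Tap2*, *Tapbp*, *Psmb8* and *Psmb9*), *B2m* lies on chromosome 2, and *Psmb10* and *Nlrc5* lie on chromosome 8. The promoters of 4 of them are shown because these genes encode the heavy chains, the light chain and a transporter subunit on which the comparisons turn. The sequences are RefSeq's for GRCm38.p6, read 5′ to 3′ on the strand of the gene from 250 bases before to 30 bases after the annotated start. They run over chr17:35262844-35263123 (plus strand) for *H2-D1*, chr17:34000318-34000597 (minus strand) for *H2-K1*, chr2:122147437-122147716 (plus strand) for *B2m* and chr17:34187306-34187585 (plus strand) for *Tap1*. Capitals mark matches to CCAAT (the Y box), to GAAANNGAA (the core of the interferon-stimulated response element without its last base) or GAANNGAAA (a form whose first repeat is 1 base shorter) and to TTCNNNGAA (the gamma-activated site), on either strand.
H2-D1: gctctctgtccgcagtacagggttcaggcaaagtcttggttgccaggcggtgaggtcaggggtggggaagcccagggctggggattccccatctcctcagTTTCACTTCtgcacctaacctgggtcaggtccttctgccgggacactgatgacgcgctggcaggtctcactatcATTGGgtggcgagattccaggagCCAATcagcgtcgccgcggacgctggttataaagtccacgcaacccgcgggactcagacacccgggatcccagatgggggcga
H2-K1: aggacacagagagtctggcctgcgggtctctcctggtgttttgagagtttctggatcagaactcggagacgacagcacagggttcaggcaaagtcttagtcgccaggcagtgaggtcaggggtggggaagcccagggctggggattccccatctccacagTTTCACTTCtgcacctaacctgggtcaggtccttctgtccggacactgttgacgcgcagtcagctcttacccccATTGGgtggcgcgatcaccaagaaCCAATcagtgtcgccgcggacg
B2m: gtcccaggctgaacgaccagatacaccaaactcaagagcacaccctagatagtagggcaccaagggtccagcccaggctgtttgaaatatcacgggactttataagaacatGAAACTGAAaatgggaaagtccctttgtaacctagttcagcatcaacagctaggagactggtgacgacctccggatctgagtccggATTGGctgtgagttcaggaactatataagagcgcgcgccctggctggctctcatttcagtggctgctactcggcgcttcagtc
Tap1: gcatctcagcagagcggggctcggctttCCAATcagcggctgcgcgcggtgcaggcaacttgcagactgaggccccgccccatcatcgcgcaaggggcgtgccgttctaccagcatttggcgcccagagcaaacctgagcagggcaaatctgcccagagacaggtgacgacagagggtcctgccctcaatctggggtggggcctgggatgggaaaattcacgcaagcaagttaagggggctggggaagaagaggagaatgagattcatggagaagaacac

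*H2-D1* and *H2-K1* both held TTTCACTTC, which is GAANNGAAA on the other strand, followed by ATTGG and CCAAT, whose first bases lay 23 bases apart in *H2-D1* and 24 bases apart in *H2-K1*. The match TTTCACTTC began 150 bases before the annotated start of *H2-D1* and 90 bases before that of *H2-K1*. RefSeq held 2 entries for *H2-K1*, and the distances are for the 1 shown, where CCAAT lies after the start. The offset between the 2 genes thus depends on the start taken. The *B2m* window held GAAACTGAA and ATTGG. RefSeq windows of 250 bases before to 50 bases after the start were at hand for 8 of the 10 genes, all but *Tap2* and *Nlrc5*. CCAAT was in 6 of the 8, against 37.9% of 27025 promoters of the same length, GAAANNGAA in 1 (*B2m*), against 8.57%, GAANNGAAA in 2, against 7.56%, and TTCNNNGAA in 1 (*Psmb8*), against 8.47%. No match to one of these motifs overlapped a match to another in the 8 windows. *Tap1* and *Psmb9* are transcribed away from each other from starts so close that their windows share 275 of 300 bases. Their CCAAT matches are the same bases read on opposite strands, so that 1 site is counted for both genes among the 6. Such matches describe the letters only, and these data hold no measurement of factor binding.

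Levels are given in CPM, counts relative to library size, with library sizes scaled by the TMM method over all 9 libraries. Total counts were between 14378051 and 20985136 in naïve and primed libraries and 25646547 in the MEF library, and a gene without a count could be present at up to 0.148 to 0.221 CPM (3 counts) in the naïve and primed libraries, a limit for counting error only. State markers went with the labels at both passages, with 7 of 7 naïve markers lower and 5 of 5 primed markers higher in primed cells. Markers shared by both states were not level. *Pou5f1* was at 712 CPM in naïve and 211 CPM in primed cells at P5, and at 756 and 598 CPM at P15. *Sox2* was at 406 and 163 CPM at P5 and 456 and 145 CPM at P15. In a comparison of bulk cultures, fewer expressing cells and less RNA per cell cannot be told apart.

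All 10 genes were higher in every primed library than in every naïve library of either passage. For 8 of them the groups stood in the order primed P15, primed P5, naïve P5, naïve P15. Going from the lowest to the highest group mean, the levels spanned 3.75-fold (*Tap1*) to 32.5-fold (*Psmb8*).

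The class I heavy chains *H2-D1* and *H2-K1* carry the peptide. *H2-D1* was at 83.2 and 79.8 CPM in naïve cells and 445 and 450 CPM in primed cells at P5. At P15 it was at 25.4 and 25.8 CPM in naïve cells and 506 and 479 CPM in primed cells, and in MEF at 21.7 CPM. The naïve P15 libraries were thus close to the fibroblasts, and the primed libraries stood far above them. *H2-K1* was at 68.6 and 65.3 CPM in naïve and 386 and 366 CPM in primed cells at P5. It was at 28.7 and 28.5 CPM in naïve and 474 and 479 CPM in primed cells at P15, with 15.4 CPM in MEF. No 2 of the 4 groups overlapped for either gene. Primed cells had 5.62-fold more *H2-D1* RNA than naïve cells at P5 (log2 fold change 2.49 ± 0.04, SE) and 19.1-fold more at P15 (4.25 ± 0.07). For *H2-K1* the folds were 5.75 at P5 (2.52 ± 0.04) and 16.5 at P15 (4.05 ± 0.07). Reads of these 2 genes are less certain than those of the others, because they share more sequence with related genes. Of their 50-base stretches, 10.9% (*H2-D1*) and 9.63% (*H2-K1*) also occur in transcripts of other *H2* genes or of others of the 10. The *H2* genes include class II genes, and genes with other names were not searched. The class I alleles of CBA mice also differ from those of the C57 genome used for alignment, and how this changed the counts was not tested.

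*B2m* encodes β2-microglobulin, the invariant light chain shared by all class I molecules. It was at 283 and 292 CPM in naïve and 748 and 781 CPM in primed cells at P5, at 152 and 150 CPM in naïve and 1140 and 1218 CPM in primed cells at P15, and at 276 CPM in MEF. Naïve cells at P5 were thus near the fibroblast level, and naïve cells at P15 were at 0.548 of it. The primed level was 2.72-fold higher than the naïve level at P5 (log2 1.44 ± 0.04) and 7.75-fold higher at P15 (2.95 ± 0.06). Per kilobase of transcript, the sum of *H2-K1* and *H2-D1* over *B2m* was 0.249 and 0.231 in naïve and 0.518 and 0.485 in primed libraries at P5. The ratio was 0.169 and 0.171 in naïve and 0.402 and 0.370 in primed libraries at P15, and 0.0619 in MEF. Relative to the light chain, RNA of the heavy chains was therefore higher in all 4 primed than in all 4 naïve libraries.

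*Tap1* and *Tap2* encode the subunits of the peptide transporter. *Tap1* was at 29.7 and 28.0 CPM in naïve and 61.0 and 61.2 CPM in primed cells at P5, at 19.7 and 20.8 CPM in naïve and 81.9 and 69.9 CPM in primed cells at P15, and at 17.4 CPM in MEF. *Tap2* was at 11.1 and 11.0 CPM in naïve and 28.2 and 25.1 CPM in primed cells at P5, at 6.63 and 7.23 CPM in naïve and 39.9 and 40.0 CPM in primed cells at P15, and at 12.0 CPM in MEF. Both subunits had the same order of groups without overlap, and the distance between states was wider for *Tap2*. Primed over naïve, *Tap1* was 2.16-fold higher at P5 (log2 1.11 ± 0.06) and 3.72-fold higher at P15 (1.90 ± 0.09). *Tap2* was 2.46-fold higher at P5 (1.30 ± 0.10) and 5.71-fold higher at P15 (2.51 ± 0.12). Annotated exons of *Tap1* and *Psmb9* share 212 bases on opposite strands, and reads from there cannot be assigned to either gene without strand. Exons of *Tap2* share 533 bases with *Gm15821* and 165 with *Gm20496* on the other strand. Those of *Psmb8* share 498 with *Gm20496* and those of *Nlrc5* 78 with *9330175E14Rik*, also on the other strand.

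*Tapbp* encodes tapasin, which bridges the transporter and the empty heavy chain. It was at 50.2 and 47.2 CPM in naïve and 158 and 154 CPM in primed cells at P5, at 29.7 and 34.1 CPM in naïve and 220 and 206 CPM in primed cells at P15, and at 64.4 CPM in MEF. Every naïve library was below the fibroblasts and every primed library above them. The state difference was 3.28-fold at P5 (log2 1.71 ± 0.05) and 6.61-fold at P15 (2.73 ± 0.07). Exons of *Tapbp* share 149 bases with *Zbtb22* on the same strand and 904 bases with *Gm19412* on the other.

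*Psmb8*, *Psmb9* and *Psmb10* encode the catalytic subunits of the immunoproteasome, which replace *Psmb5*, *Psmb6* and *Psmb7* of the constitutive proteasome. *Psmb8* was at 7.76 and 10.9 CPM in naïve and 38.6 and 37.1 CPM in primed cells at P5, at 2.87 and 2.81 CPM in naïve and 92.0 and 93.0 CPM in primed cells at P15, and at 4.42 CPM in MEF. It had the widest state difference of the 10 genes at P15, 32.2-fold (log2 5.01 ± 0.12), after 4.14-fold at P5 (2.05 ± 0.11). *Psmb9* was at 3.98 and 4.65 CPM in naïve and 11.6 and 11.8 CPM in primed cells at P5, at 4.20 and 3.45 CPM in naïve and 19.6 and 17.7 CPM in primed cells at P15, and at 1.06 CPM in MEF. Its 2 naïve groups overlapped. *Psmb10* was at 26.7 and 24.8 CPM in naïve and 39.7 and 44.3 CPM in primed cells at P5, at 27.7 and 23.9 CPM in naïve and 125 and 119 CPM in primed cells at P15, and at 18.5 CPM in MEF. Its naïve groups overlapped as well, and its state difference at P5, 1.66-fold (log2 0.74 ± 0.08), was the smallest of the 10 genes. At P15 primed cells had 4.86-fold more *Psmb9* RNA (2.28 ± 0.17) and 4.72-fold more *Psmb10* RNA (2.24 ± 0.08) than naïve cells.

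*Nlrc5* encodes the transactivator of class I genes. It was at 2.34 and 3.02 CPM in naïve and 14.1 and 15.9 CPM in primed cells at P5. At P15 it was at 0.368 and 0.576 CPM in naïve cells, which rest on 5 and 9 counts, and at 8.61 and 10.1 CPM in primed cells, with 1.19 CPM in MEF. It was the 1 gene of the 10 whose primed level was higher at P5 than at P15. The state difference was 5.70-fold at P5 (log2 2.51 ± 0.16) and 19.1-fold at P15 (4.26 ± 0.31), the latter with the widest error of the 10 genes.

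**Figure D1:**
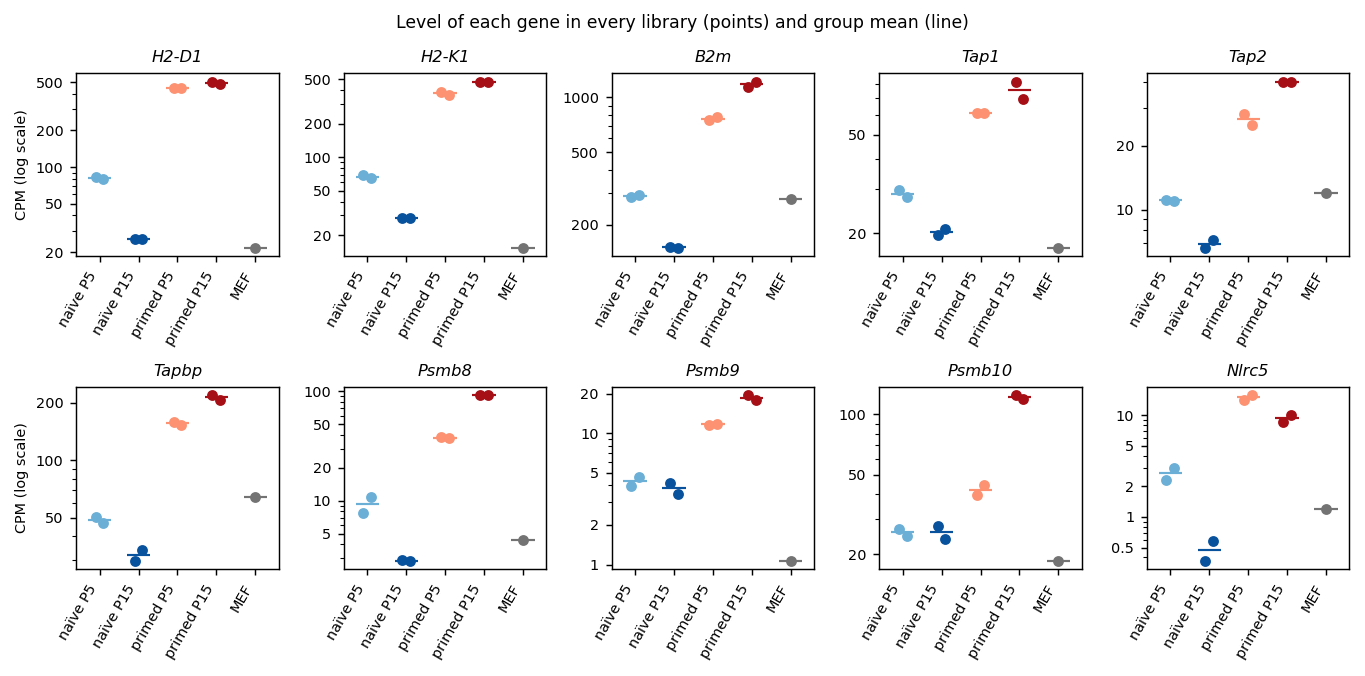
Level of each of the 10 genes in CPM on a log axis, with a point for every library and a line at the group mean, for each state at P5 and P15 (2 libraries a group) and MEF (1 library). In each panel all 4 primed points lie above all 4 naïve points, and only *Nlrc5* is higher in primed cells at P5 than at P15.

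The rule for a call was a difference of 2-fold or more together with an adjusted p below 0.01 in edgeR's quasi-likelihood test. At P5, 9 of the 10 genes were past it, all higher in primed cells, with *Psmb10* short of a 2-fold difference, while 13.5% of the 16482 genes tested were called higher and 8.85% lower. These were 2222 and 1458 genes, or 2863 and 1083 with library size alone. At P15 all 10 were past it and higher, against 12.2% of 15733 genes called higher and 11.0% lower. The median log2 difference of the 10 genes was 1.59 at P5 and 2.84 at P15, and the medians of all genes tested were 0.0078 and -0.0039. Since the genes were chosen with these contrasts known, nothing is read from these counts.

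From P5 to P15 the difference between the states widened, for most of the 10 genes with lower levels in naïve and higher levels in primed cells. Since passage was among the values behind the choice, the counts of the 10 genes past the rule are again a description. In naïve cells they were 4, all lower at P15, namely *H2-D1* (3.18-fold, log2 -1.67 ± 0.07), *H2-K1* (2.34-fold, -1.23 ± 0.07), *Psmb8* (3.28-fold, -1.71 ± 0.22) and *Nlrc5* (5.53-fold, -2.47 ± 0.40). Of 15683 genes tested in naïve cells, 0.414% were called higher and 0.721% lower at P15. *B2m* was 1.90-fold lower (-0.93 ± 0.04), *Tap1*, *Tap2* and *Tapbp* were between 1.42-fold and 1.59-fold lower, and *Psmb9* (-0.18 ± 0.22) and *Psmb10* (0.00065 ± 0.10) differed by no more than their errors. In primed cells 2 genes were past the rule and higher at P15, *Psmb8* (2.39-fold, 1.26 ± 0.06) and *Psmb10* (2.86-fold, 1.51 ± 0.07), against 3.18% of 15957 genes called higher and 8.43% lower. *B2m* was 1.51-fold higher (0.59 ± 0.05) and *Psmb9* 1.56-fold higher (0.64 ± 0.11). *H2-K1* (0.31 ± 0.05) and *H2-D1* (0.11 ± 0.05) differed little, and the value of *H2-D1* turned to -0.027 when libraries were scaled by their size alone. *Nlrc5* was 1.63-fold lower at P15 in primed cells (-0.71 ± 0.13).

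The difference between the state effects at the 2 passages was positive for all 10 genes, between 0.80 ± 0.12 (*Tap1*) and 2.98 ± 0.19 (*Psmb8*) on the log2 scale. It was past the rule for 8 of them, all but *Tap1* and *Psmb9* (0.83 ± 0.23), where 2.36% of 16926 genes were called higher and 4.80% lower, and nothing is read from this count either. Scaling by library size alone took the median log2 value of all genes to 0.21 at P5, 0.10 at P15, -0.13 for P15 against P5 in primed cells and -0.11 for the difference between passages, and the state differences of the 10 genes kept their sign under it.

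**Figure D2:**
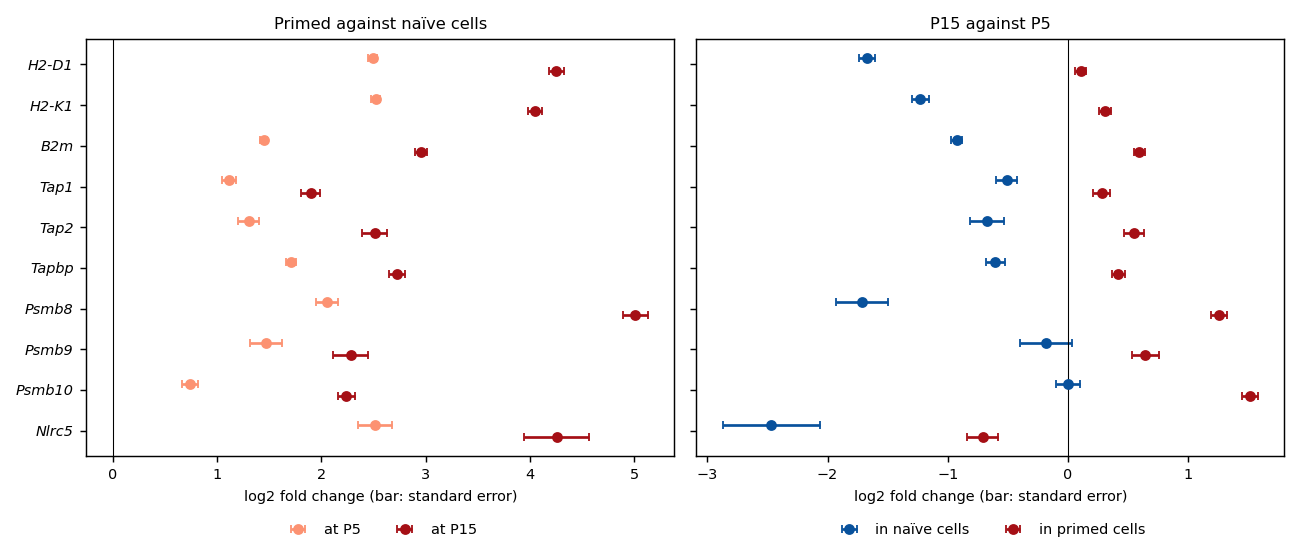
Log2 fold change of each of the 10 genes with its standard error, for primed against naïve cells at each passage (left) and for P15 against P5 in each state (right). All values on the left are above 0 and larger at P15, and on the right most naïve values lie below 0 and most primed values above it, with *Psmb10* at 0.00065 in naïve cells and *Nlrc5* at -0.71 in primed cells.

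Compared per kilobase of the longest coding transcript, *B2m* was the most abundant of the 10 RNAs in every group, from 176 CPM per kb in naïve cells at P15 to 1371 CPM per kb in primed cells at P15. *H2-K1* and *H2-D1* followed it in both primed groups, with 294 and 234 CPM per kb at P15, and in naïve cells at P5, with 41.3 and 38.8 CPM per kb. They change places when the length of all annotated exons is used instead. In naïve cells at P15 *Psmb10* was second, at 19.7 CPM per kb, ahead of *H2-K1* at 17.7 CPM per kb. *Nlrc5* was the lowest in all 5 groups, at 0.0623 to 1.98 CPM per kb.

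The immunoproteasome subunits differed in how far they stood below the subunit each replaces. Per kilobase, *Psmb8* was at 2.90% and 4.05% of *Psmb5* in naïve and 19.4% and 18.8% in primed libraries at P5, and at 1.09% and 1.01% in naïve and 29.5% and 32.0% in primed libraries at P15. *Psmb9* was at 1.07% and 1.27% of *Psmb6* in naïve and 4.39% and 4.37% in primed libraries at P5, and at 0.967% and 0.864% in naïve and 4.93% and 4.33% in primed libraries at P15. *Psmb10* was at 21.8% and 18.2% of *Psmb7* in naïve and 42.6% and 49.7% in primed libraries at P5, and at 24.7% and 16.7% in naïve and 86.3% and 88.7% in primed libraries at P15. MEF had 2.57%, 0.426% and 25.4% for the 3 pairs. All primed libraries lay above all naïve libraries for each pair, and for *Psmb9* the 2 primed groups overlapped. With the length of all annotated exons the levels of these ratios change, and *Psmb10* then reaches 196% and 201% of *Psmb7* in primed cells at P15. The constitutive subunits themselves were called at neither passage, with log2 differences between -0.47 ± 0.05 (*Psmb7*, adjusted p = 2.6e-09 at P5 by edgeR) and 0.14 ± 0.06 (*Psmb5*, adjusted p = 0.050 at P15).

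**Figure D3:**
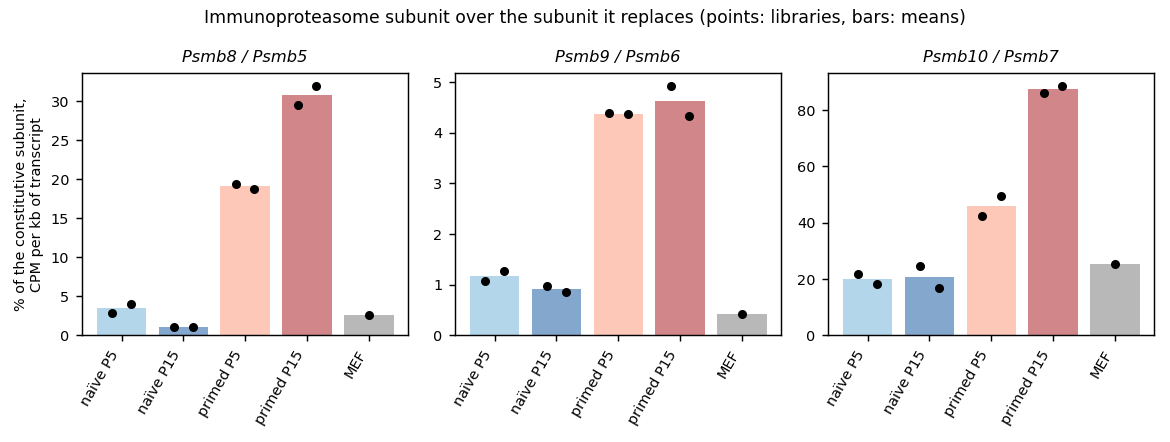
CPM per kb of *Psmb8*, *Psmb9* and *Psmb10* as a percentage of *Psmb5*, *Psmb6* and *Psmb7*, with a point for each library and a bar for the group mean. The axes differ between panels, and *Psmb10* reaches 88.7% in primed cells at P15 where *Psmb9* stays at or below 4.93%.

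The other genes of the pathway, 68 in 4 lists that share no gene with the 10, were tested by edgeR with adjustment over all genes. These lists too were drawn up with earlier results of these data known, so they are not independent support for the 10 genes. At P5, 17 of 65 tested rose and 3 fell in primed cells. At P15, 25 of 64 rose and 3 fell. Of all genes tested, 13.5% rose and 8.85% fell at P5 and 12.2% rose and 11.0% fell at P15. The list of other class I heavy chains had a median log2 difference of 1.34 at P5 and 2.27 at P15, and 10 of 18 tested genes were higher and 2 lower at P5 and 13 of 17 higher and 2 lower at P15. *H2-Q4*, a Q-region heavy chain, rose from 10.4 ± 0.03 to 61.8 ± 4.0 CPM at P5 (SD, n = 2, 6.07-fold, adjusted p = 6.8e-22 by edgeR) and from 4.04 ± 0.64 to 91.0 ± 1.4 CPM at P15 (22.5-fold, adjusted p = 9.1e-29 by edgeR). *H2-T23*, which encodes the Qa-1 chain that natural killer cells read, rose 3.30-fold at P5 and 15.8-fold at P15. *H2-Q6*, *H2-Q7* and *H2-Q1* rose 7.79-fold, 6.05-fold and 6.23-fold at P5. *H2-M5* went the other way and fell from 18.9 ± 1.1 to 1.63 ± 0.13 CPM at P5 and from 24.9 ± 2.6 to 0.0855 ± 0.040 CPM at P15, the last value being under 3 counts per library. *H2-T3*, at under 1 CPM in naïve cells, was called lower at both passages, and its call at P5 was lost without the low-count filter and with DESeq2. Reads shared between these paralogs make the split among them uncertain.

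In the list of peptide loading and quality control, 2 of 9 genes rose at each passage and none fell, and the median log2 difference was -0.029 at P5 and 0.18 at P15. The 2 were *Erap1*, the aminopeptidase that trims peptides in the endoplasmic reticulum (4.27-fold at P5 and 8.50-fold at P15), and *Tapbpl*, a relative of tapasin (2.19-fold and 5.25-fold). The general chaperones did not reach a 2-fold difference. At P5 the log2 difference was -0.63 ± 0.03 for *Calr* (adjusted p = 1.0e-16 by edgeR), -0.18 ± 0.03 for *Canx* and -0.029 ± 0.03 for *Pdia3*. At P15 it was 0.033 ± 0.05 for *Calr*, -0.22 ± 0.05 for *Canx* and 0.33 ± 0.05 for *Pdia3*. In the list of proteasome and peptide supply, 1 of 14 genes was called at P5 and 3 at P15. The median log2 differences of this list were -0.33 and -0.023. *Lap3*, a leucine aminopeptidase, fell 2.56-fold at P5 and 2.14-fold at P15. *Psme1* and *Psme2*, the subunits of the PA28 activator of the proteasome, were 1.77-fold and 1.90-fold higher at P5, short of the 2-fold limit, and rose 3.83-fold and 5.15-fold at P15.

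Of the regulators of class I transcription, 5 of 24 rose at P5 and 8 at P15, none fell, and the median log2 differences were 0.39 and 0.60. *Stat2*, which carries the interferon signal to the nucleus, rose 2.12-fold at P5 and 4.40-fold at P15, and *Irf1*, an interferon-induced activator of class I promoters, rose 2.83-fold and 4.53-fold. *Irf2* rose 3.50-fold and 2.35-fold, *Ifngr2*, a chain of the interferon gamma receptor, 2.39-fold and 2.29-fold, and *Irf9* was called at P15 (3.14-fold). *Rfx5*, which binds the X box of class I and class II promoters, was 1.23-fold and 1.36-fold higher and not called.

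**Figure D4:**
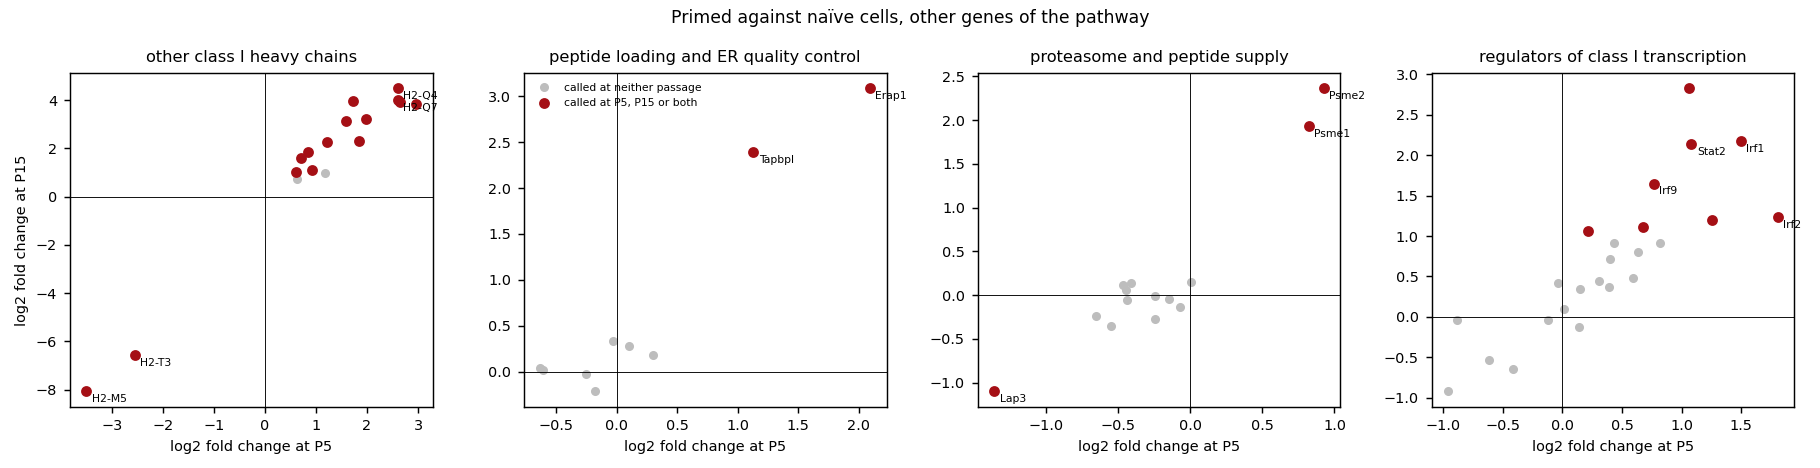
Log2 fold change of primed against naïve cells at P5 (x axis) and P15 (y axis) for genes of the 4 pathway lists tested at both passages. Red points were called at P5, P15 or both, up to 4 of those with a large change are named in each panel, and the scales differ between panels. Most red points lie in the upper right, and *H2-M5*, *H2-T3* and *Lap3* lie in the lower left.

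With passage, 4 of 65 of these pathway genes fell in naïve cells and none rose. All 4 were heavy chains, among them *H2-T23* (3.20-fold, adjusted p = 5.1e-06 by edgeR) and *H2-Q4* (2.59-fold, adjusted p = 0.00011 by edgeR). Of all genes, 0.721% were called lower and 0.414% higher there. The number of pathway genes that fell was 2 without the low-count filter or without replicate 1 of naïve P15. In primed cells 2 of 64 rose and 2 fell, against 3.18% and 8.43% of all genes, and 6 rose and 2 fell after a feeder share was subtracted. The difference between the state effects at the 2 passages was called for 11 of 66 genes, 10 of them higher and 1 lower. Of all genes, 2.36% were called higher and 4.80% lower. The largest of the 10 were *H2-T23* (log2 2.27 ± 0.15) and *H2-Q4* (1.91 ± 0.16). The lower one was *H2-M5* (-4.56), whose fall in primed cells was larger at P15 (log2 -8.07) than at P5 (-3.51). Its primed P15 libraries held 1 and 2 counts, so the sizes at P15 and of the difference depend on the prior count.

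Interferon-stimulated genes outside antigen presentation, a list of 16, moved in the same comparisons. At P5, 11 of 15 tested rose in primed cells with a median log2 difference of 1.58, and at P15 all 16 rose with a median of 4.28, and none fell. From P5 to P15, 13 of 15 fell in naïve cells and 8 of 16 rose in primed cells. Of all genes tested, 13.5% were called higher and 8.85% lower in primed cells at P5, and 12.2% and 11.0% at P15. With passage, 0.414% were called higher and 0.721% lower in naïve cells, and 3.18% and 8.43% in primed cells. Their summed level was 719 to 724 CPM in naïve and 1368 to 1374 CPM in primed libraries at P5, 389 to 404 CPM in naïve and 2933 to 2944 CPM in primed libraries at P15, and 465 CPM in MEF. Their part in the levels of the 10 genes was not tested. Of MHC class II, the transactivator *Ciita* was at or under 0.235 CPM in each naïve and primed group and *H2-Aa* at or under 0.158 CPM, and neither had enough counts to be tested. Of the 11 class II genes, 2 of 6 tested rose at P5 (*H2-DMb1* and *H2-Oa*). At P15, 2 of 5 rose (*H2-Ab1* and *H2-Oa*) and 1 fell (*Cd74*). The mean level of *H2-Ab1* was 3.52 CPM in naïve and 6.59 CPM in primed cells at P5, and 1.60 and 6.06 CPM at P15.

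Other cell types in the cultures were followed by their markers. The summed level of 26 fibroblast markers was 8899 to 8960 CPM in naïve and 5576 to 5689 CPM in primed libraries at P5, 15300 to 16016 CPM in naïve and 13849 to 14404 CPM in primed libraries at P15, and 80302 CPM in MEF. The median marker was at 16.8% to 17.0%, 11.2% to 12.9%, 18.7% to 18.8% and 20.5% to 22.6% of its MEF level in these groups, and no marker was at 0. Of the 26, 3 rose and 8 fell in primed cells at P5, and 4 rose and 7 fell at P15. From P5 to P15, 6 rose and 1 fell in naïve cells and 14 rose and 1 fell in primed cells. The shares of all genes called higher and lower were 13.5% and 8.85% between states at P5 and 12.2% and 11.0% at P15. With passage they were 0.414% and 0.721% in naïve and 3.18% and 8.43% in primed cells. Markers thus went both ways. *Dcn*, *Lum* and *Mmp2*, which encode matrix proteins and a matrix protease, rose in primed cells at both passages. *Dcn* rose 11.8-fold at P5 and 37.6-fold at P15, *Lum* 7.51-fold and 32.3-fold and *Mmp2* 2.73-fold and 3.16-fold. Among those that fell at both were *Acta2* (3.47-fold at P5 and 11.3-fold at P15), *Ogn* (6.53-fold and 6.15-fold) and *Fbln5* (6.30-fold and 3.56-fold). In each primed library 1 of the 26 markers at P5 and 3 at P15 were above their MEF level, at up to 354% of it. All 10 class I genes were above their MEF level in all 4 primed libraries. The median ratio of the 10 genes to MEF was 6.03 in primed cells at P5 and 7.23 at P15, and 1.88 and 0.900 in naïve cells. The summed level of 15 leukocyte markers was 62.9 to 65.5 CPM in naïve and 45.3 CPM in primed libraries at P5, 59.4 to 60.4 CPM in naïve and 23.6 to 24.3 CPM in primed libraries at P15, and 114 CPM in MEF. Most of the sum in naïve cells was *Laptm5*, at a mean of 45.5 CPM at P5 and 43.7 CPM at P15. This gene was at 2.63 CPM in primed cells at P15 and at 16.9 CPM in MEF. The lower sums in primed cells thus follow *Laptm5*, which fell at both passages, and are not read as less leukocyte RNA. Levels differed among these markers. *Ptprc*, the common leukocyte antigen, had at most 9 counts in any naïve or primed library and 74 in MEF, and *Itgax* at most 1, while *Cd68* reached 522 and *Laptm5* 948 counts. Of the 7 leukocyte markers tested at P5, 3 rose and 3 fell in primed cells, and of 6 tested at P15, 2 rose and 3 fell. *Cd14* rose 4.02-fold at P5 and 6.03-fold at P15 and *Lyz2* 3.29-fold and 2.52-fold, *Cd68* rose at P5 (2.26-fold), and *Laptm5* fell 6.31-fold and 16.7-fold. The part of fibroblast and leukocyte genes in the levels of the 10 genes was not tested.

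**Figure D5:**
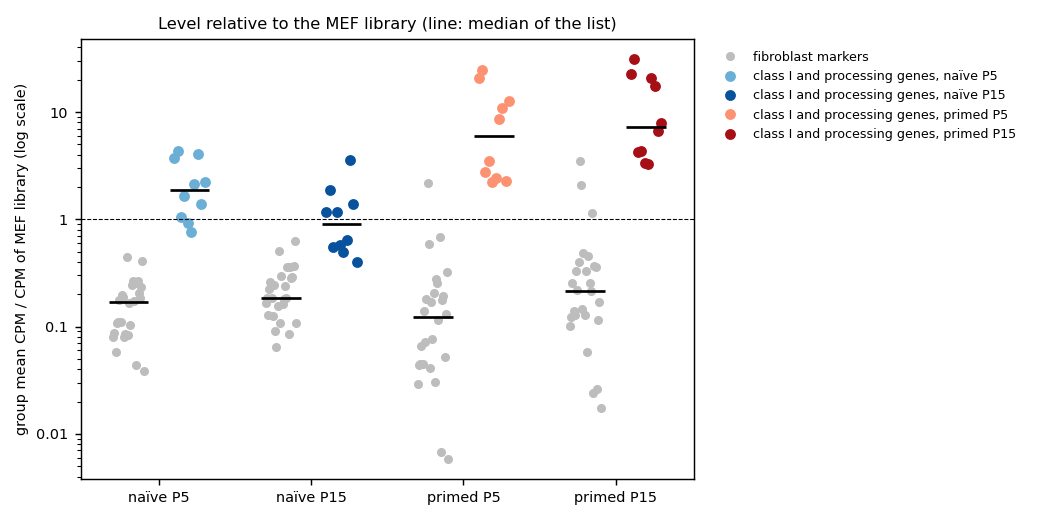
Group mean CPM divided by the CPM of the MEF library, on a log axis, for the 26 fibroblast markers (grey) and the 10 class I and antigen processing genes (coloured), with a line at the median of each list. The 10 genes lie above the dashed line of equal level in both primed groups, with medians of 6.03 and 7.23, while the medians of the fibroblast markers lie well below it in every group, with 1 marker above it in primed cells at P5 and 3 at P15.

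The genes most like the 10 were sought among 1066 genes with a mean of at least 10 CPM and an SD of log2(CPM + 1) of at least 0.642, by Pearson's r of log2(CPM + 1) with the mean of the 10 centred genes over the 8 naïve and primed libraries. These libraries form 4 groups, so that such an r mainly follows the group means and is a description. The 5 highest were *Parp10* (0.999), *H2-Q4*, *H2-T22*, *Tnfrsf1b* (0.998 each) and *Ifit2* (0.998). *Parp10* was at 11.2 CPM in naïve and 49.1 CPM in primed cells at P5, and at 4.19 and 78.2 CPM at P15. Within the 10 genes, which are part of the mean, *B2m* had the highest r (0.998) and *Psmb10* the lowest (0.856).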

How the data were processed

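RNA-seq of 9 libraries was used, namely 2 for each state at each passage and 1 of MEF. The deposited values are raw counts per Ensembl gene ID, and the authors made them by trimming with Cutadapt, aligning to mm10 with HISAT2 and counting with featureCounts. The Ensembl release, the strand setting and the treatment of reads with several alignments are not given in the sources used here, and the library kit does not mark strand. Of 54232 IDs, 54079 had a name in GENCODE M21, which also gave coordinates and transcript lengths. The 92 spike-in entries were left out, as no library had a count for them.

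Genes that reached 10 counts in 2 or more of the fitted libraries were tested by edgeR 4.0.16 (quasi-likelihood, TMM scaling, Benjamini-Hochberg adjustment over all genes tested) in R 4.3.3, primed against naïve at each passage and P15 against P5 in each state with 4 libraries, and the difference between passages with 8. Calls needed an adjusted p under 0.01 and a fold of at least 2. The SE is the log2 fold change over the square root of the F statistic, and folds depend on the prior count at low counts. The MEF library entered no fit. The code was tested on simulated counts. Motifs were searched in RefSeq promoters.

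The members and the gene lists were chosen with earlier results of these data known. Named besides the 10 genes are, of each pathway list, the 4 genes with the largest change among those called at P5, the 4 at P15 and the 2 with the largest difference between passages, genes taken for their role, and the 5 most alike. Single fibroblast and leukocyte markers, *Pou5f1*, *Sox2*, the class II genes besides *Ciita* and *H2-Aa*, *Zbtb22*, *Gm19412*, *Gm15821*, *Gm20496* and *9330175E14Rik* were named after their values were seen. A gene the rule also selects is not reported here. Alternatives were DESeq2 1.42.0 (size factors, Wald test), no low-count filter, a replicate block, a joint fit of the 8 naïve and primed libraries, library size alone, subtraction of a feeder share of the MEF counts, and each replicate left out, where the lone library of a group was assumed to vary like the others. A crossed block and the motif GAANNGAAA were added after seeing the data.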

Additional observations from a re-analysis of the deposited data

Results flagged for a closer look

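Among the other genes of the pathway, the 10 named here had effects of the primed state that differed between P5 and P15 by edgeR's interaction test (adjusted p under 0.01 and a difference of at least 2-fold). The log2 differences, P15 minus P5, were 1.91 for *H2-Q4*, 1.42 for *H2-Q7*, 1.57 for *H2-T22*, 2.27 for *H2-T23* and -4.56 for *H2-M5* among the heavy chains. They were 1.28 for *Tapbpl* and 1.01 for *Erap1* in peptide loading, 1.13 for *Psme1* and 1.45 for *Psme2* in the proteasome, and 1.07 for *Stat2* among the regulators. The value of *H2-M5* rests on 1 and 2 counts in primed cells at P15, so its size depends on the prior count. The 2.36% of all genes called higher and 4.80% called lower in this comparison are the background of these calls. Scaling by library size alone took *Erap1* (0.90) and *Stat2* (0.96) under the 2-fold limit, and leaving out a replicate did so for *Erap1* in 3 cases.

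For 7 of the 10 class I genes, both naïve libraries were lower at P15 than at P5 while both primed libraries were higher. That the directions are opposite was not tested, and the log2 differences are a description, because the genes were chosen with them in view. They were 1.78 for *H2-D1*, 1.54 for *H2-K1*, 1.53 for *B2m*, 0.80 for *Tap1*, 1.23 for *Tap2*, 1.03 for *Tapbp* and 2.98 for *Psmb8*. For *H2-D1* the opposite directions rest on a change of 0.11 in primed cells, which was -0.027 with library size alone.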

How the results depend on the processing

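The numbers of class I genes past the rule stayed within 1.5 times the values given under every alternative. Of their log2 fold changes, 292 moved by less than the spread between replicates (1 SD) under an alternative and 58 by more, and with a replicate left out 218 and 18. Of the values of other named genes, 813 stayed on their side of the limits, 6 passed them anew and 14 no longer passed. *H2-T3* at P5 was lost without a low-count filter, with DESeq2 and after subtraction of the feeder share. Without a low-count filter, 2 of the pathway genes fell in naïve cells from P5 to P15, and without replicate 1 of naïve P15 also 2, in place of 4. After subtraction of the feeder share, 8 were called in primed cells (6 higher, 2 lower) in place of 4, and without replicate 2 of primed P5 it was 2. With a replicate left out, the calls of pathway genes ranged from 18 to 20 at P5, 24 to 28 at P15, 2 to 5 with passage in either state and 10 to 14 for the difference between passages. Those of the 10 genes stayed at 9 at P5, and were 9 to 10 at P15, 3 to 4 in naïve cells, 2 in primed cells and 6 to 8 for the difference. With library size alone the median ratio of the 10 genes to MEF was 0.930 in naïve cells at P15 and 7.45 and 7.98 in primed cells at P5 and P15, and 2863 genes were higher and 1083 lower at P5 in place of 2222 and 1458. On the strand of the gene alone, CCAAT was in 3 promoters in place of 6 and GAANNGAAA in 0 in place of 2.

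The deviations of libraries with the same replicate number correlated at -0.097 between the states at P5 and -0.10 at P15, and at 0.090 between passages in naïve and 0.10 in primed cells, so that with 2 pairs each the numbers were not taken to pair the samples. With the replicate block, 2216 genes were higher and 1447 lower at P5 and 1761 and 1608 at P15, and with crossed pairs at P15 1915 and 1732, so that no count moved by over 1.5 times. With the block, the calls were 20 and 27 of the pathway genes at P5 and P15, 4 and 5 with passage and 11 for the difference, and 9, 10, 4, 2 and 8 of the 10 genes. With 2 libraries a group, the precision of *Nlrc5* in naïve cells at P15 is set by its 5 and 9 counts. The cause of these changes was not tested.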
